A study of Mus musculus with 1 sample.

Results

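The TRAV segments are the variable segments of the T-cell receptor (TCR) α-chain, and their usage was counted in blood T cells of 1 mouse. A contig, which is a receptor transcript assembled from the reads of 1 droplet, was counted when it was assigned to a cell, was productive and of high confidence, and was called as TRA with a TRAV segment. This rule gave 876 contigs in 799 of the 975 clonotyped cells. They carried 82 TRAV segments, of 128 Trav genes listed in the gene expression matrix, which fell into 41 subfamilies named by the text before the hyphen. The study tested inhibition of ERBB2 together with PD-1 blockade in small cell lung cancer (SCLC), and sequenced TCRs of peripheral T cells to compare the repertoire under treatment with those of a vehicle-treated and a healthy mouse. The mouse analysed here was given vehicle (PBS) every 3 days and belongs to the autochthonous SCLC model, in which conditional Rb1 and Trp53 alleles are deleted in the lung by intratracheal Adeno-Cre on a C57BL/6 background. Its age and sex are not given in the sources used here, and the combination-treated mouse was not analysed here. From 150 µl of blood, red cells were lysed and T cells were enriched by negative selection before 10x Genomics gene expression and TCR libraries were made. As the group holds 1 library, no test across animals was possible, and the exact 95% intervals given with shares (Clopper-Pearson) and with UMI sums (Poisson) cover counting error only. Reads with the same UMI, a short random barcode, stem from the same captured transcript.

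During T-cell development in the thymus, a TRAV segment is joined to a TRAJ segment to form the exon of the α-chain variable domain. The segment itself encodes the loops CDR1 and CDR2, which lie mostly over the MHC molecule, whereas CDR3 spans the junction with TRAJ and contacts the peptide. CD4 T cells recognise peptides on MHC class II and CD8 T cells peptides on MHC class I, so that the α-chain is a place where the 2 lineages can differ. In the mouse, large blocks of the TRAV locus have been duplicated, and the copies of a subfamily carry the letter D or N. In some T cells the α-chain is fixed. TRAV11 joined to TRAJ18 is the chain of invariant NKT cells, which see lipids on CD1d, and TRAV1 joined to TRAJ33 is that of MAIT cells, which see vitamin B metabolites on MR1.

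The stretch from CDR1 to CDR2 is given below for 14 segments. They include the 8 segments that differed at least 2-fold in share between Cd4 and Cd8 cells, of 29 with enough cells to be tested. The others are copies with the same loops, TRAV14N-3 and TRAV14-3, which differed when counted together, and TRAV11 and TRAV1 for the invariant cells. Each was read 5′ to 3′ from the contigs, the capitals mark CDR1 and CDR2, and the lower case between them is framework 2.
TRAV4N-4: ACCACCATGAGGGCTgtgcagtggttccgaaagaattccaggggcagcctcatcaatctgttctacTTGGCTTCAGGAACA
TRAV4-4-DV10: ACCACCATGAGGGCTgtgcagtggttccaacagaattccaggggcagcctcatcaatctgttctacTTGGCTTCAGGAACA
TRAV14-2: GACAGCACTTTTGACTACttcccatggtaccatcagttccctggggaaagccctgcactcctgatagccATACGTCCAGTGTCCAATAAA
TRAV14N-2: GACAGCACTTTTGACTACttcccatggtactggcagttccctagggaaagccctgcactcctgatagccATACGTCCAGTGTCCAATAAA
TRAV14N-3: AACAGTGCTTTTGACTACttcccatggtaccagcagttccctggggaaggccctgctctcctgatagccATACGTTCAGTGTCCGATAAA
TRAV14-3: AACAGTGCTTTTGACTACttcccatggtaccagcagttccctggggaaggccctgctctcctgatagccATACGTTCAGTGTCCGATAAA
TRAV16N: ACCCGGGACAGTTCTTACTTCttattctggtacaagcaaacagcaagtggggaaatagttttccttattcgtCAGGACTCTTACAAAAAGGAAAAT
TRAV16: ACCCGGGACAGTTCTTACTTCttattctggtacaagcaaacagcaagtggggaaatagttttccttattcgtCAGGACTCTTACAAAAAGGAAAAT
TRAV13-1: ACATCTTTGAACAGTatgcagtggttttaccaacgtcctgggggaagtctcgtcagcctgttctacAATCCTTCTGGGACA
TRAV13N-1: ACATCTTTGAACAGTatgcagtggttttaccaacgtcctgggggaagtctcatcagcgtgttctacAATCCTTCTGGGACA
TRAV12D-3: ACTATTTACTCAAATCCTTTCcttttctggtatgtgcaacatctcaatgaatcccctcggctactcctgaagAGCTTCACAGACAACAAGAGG
TRAV8D-2: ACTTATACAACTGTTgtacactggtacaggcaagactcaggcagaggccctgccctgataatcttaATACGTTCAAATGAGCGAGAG
TRAV11: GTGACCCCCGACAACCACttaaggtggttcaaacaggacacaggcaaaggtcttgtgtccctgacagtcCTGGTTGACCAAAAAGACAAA
TRAV1: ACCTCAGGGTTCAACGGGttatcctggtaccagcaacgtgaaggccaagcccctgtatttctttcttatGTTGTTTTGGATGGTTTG

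Copies of a segment in different blocks often had the same loops. TRAV14N-3 and TRAV14-3 differed at 0 of 90 bases of this stretch, and TRAV16N and TRAV16 at 0 of 96. TRAV4N-4 and TRAV4-4-DV10 differed at 2 of 81 bases, as did TRAV13-1 and TRAV13N-1, and TRAV14-2 and TRAV14N-2 at 4 of 90, in framework 2 only. Each stretch was found in the GENCODE transcript of the segment of that name, and it was carried by every contig of its segment except for 1 of 34 contigs of TRAV12D-3.

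The 799 cells had 779 to 17444 UMIs in the gene expression matrix, with a median of 5531, and 7 of them were below 1331 UMIs, a limit set at 10% of the 99th percentile over the 3000 deepest barcodes. A UMI of Cd3d, Cd3e or Cd3g, the signalling chains of the TCR, was found in 794 of them. The B-cell marker Cd79a was found in 8 cells, Trdc of the γδ TCR in 9, the platelet gene Pf4 in 70 and the NK-cell marker Ncr1 in 0. Their part in the results was not tested, and no doublets were removed. Ribosomal protein genes held under 10% of the UMIs in 102 of the cells. Any Trav gene was found in 636 of the 799 cells (79.6%, 76.6% to 82.3%). It was found in 0 of 82 cells with B-cell markers, no Cd3 UMI and no clonotype, which had a median of 3678 UMIs. Because cells with a Cd3 UMI were left out of these 82, a low count of T-cell RNA is partly built in. The 82 cells therefore do not measure the level of stray T-cell RNA.

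TRAV usage was broad. The most frequent segments were TRAV12D-3 and TRAV16N, each in 34 cells (4.26%, 2.96% to 5.90%), followed by TRAV3N-3 in 33, TRAV6N-7 in 32, TRAV13-1 and TRAV6D-6 in 27 each, TRAV7-4 and TRAV7D-2 in 26 each, TRAV12-2 in 22 and TRAV12N-2 in 20. The intervals of neighbours in this order overlapped. A segment of these 10 was carried by 279 cells (34.9%, 31.6% to 38.3%). The median segment was seen in 8.5 cells, 45 of the 82 in fewer than 10 cells and 5 in 1 cell. A segment was joined to up to 21 different TRAJ.

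By subfamily, TRAV7 led with 62 cells (7.76%, 6.001% to 9.84%), ahead of TRAV6N with 46 and TRAV7D with 43. In all, 19 subfamilies were seen in 20 or more cells. TRAV12 and TRAV6 were found in 42 cells each, TRAV13 in 41, TRAV14 and TRAV14N in 39 each, TRAV13N in 37 and TRAV9 in 36. TRAV6D, TRAV12D and TRAV16N had 34 each, TRAV3N 33, TRAV4 26, TRAV8D 25, TRAV4N 24, TRAV12N 23 and TRAV3 21. When the D and N copies were merged with the copy that has no letter, 19 families remained. TRAV6 (122 cells, 15.3%, 12.8% to 17.95%) and TRAV7 (120 cells, 15.0%, 12.6% to 17.7%) were then the most used, with overlapping intervals, followed by TRAV12 with 98, TRAV14 with 88 and TRAV13 with 84. At the other end, TRAV11, TRAV15 and TRAV17 were found in 5 cells each, TRAV1 in 4 and TRAV2 in 2. By the names as called, segments without a letter were found in 383 cells, N copies in 296 and D copies in 166. As given below, the name of a copy cannot always be read from the sequence, so these counts do not measure copy use.

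**Figure D1:**
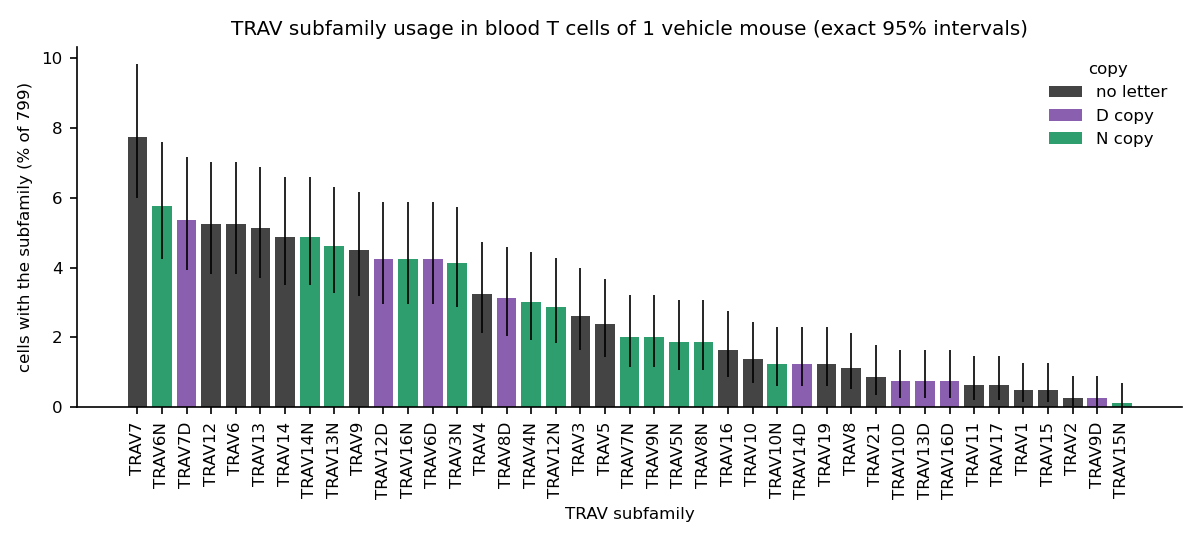
Share of the 799 cells that carried each of the 41 TRAV subfamilies (percent, bars with exact 95% intervals), coloured by copy. Copies are as named in the contigs, and some share their V sequence with a copy of another letter. TRAV7 led with 7.76%, and D and N copies stood among the most used subfamilies.

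Segments of the AV/DV kind, which can be joined in an α- or a δ-chain, were carried by 59 cells (7.38%, 5.67% to 9.42%) through 7 segments. Of the 11 contigs called as TRD in cells, 0 were productive. A T cell can carry a second α-chain, since both alleles can be rearranged, and 77 of the 799 cells had 2 productive TRA contigs. They carried different segments in 75 cells, but segments of the same family in 6 cells, counting the 2 with the same segment in both contigs.

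The name of a copy could not always be read from the sequence. Of 130 annotated TRAV segments, 48 had no cell, and 20 of these are annotated as pseudogenes. For 18 of the other 28, the annotated transcript held the V sequence, from framework 1 to framework 3, that the contigs gave to a segment found here. TRAV12N-3 holds the sequence of TRAV12D-3, TRAV3D-3 that of TRAV3N-3, TRAV6D-7 that of TRAV6N-7, TRAV4D-4 that of TRAV4N-4 and TRAV11D that of TRAV11. In such cases the copy used by the cell cannot be told apart from its twin. In all, the V sequence of 22 of the 82 segments occurred in several annotated genes, and 304 of the 799 cells carried such a segment. For the remaining 10 segments, among them TRAV6-2, TRAV18 and TRAV23, no carrier was found, and the limit set by a count of 0 (3 of 799 cells) is 0.375% each.

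The gene expression library gave a separate count of the same transcripts, which the rule did not use. For 561 pairs of a cell and a carried segment whose V sequence is in 1 gene, a UMI of the gene of that name was found in 546 (97.3%, 95.6% to 98.5%). For the 313 pairs whose V sequence is in several genes, it was found in 24 (7.67%, 4.97% to 11.2%), and 16 of these were carriers of TRAV6-5. The 34 carriers of TRAV16N all held a Trav16n UMI, 113 UMIs together, and the 27 carriers of TRAV13-1 held 112 of Trav13-1. In contrast, the 34 carriers of TRAV12D-3, the 33 of TRAV3N-3 and the 32 of TRAV6N-7 held 0 UMIs of the genes of these names. Of the segments with a V sequence in 1 gene, TRAV9N-4 was found in 3 of 10 carriers. Over all 874 pairs the share was 65.2% (62.0% to 68.4%), against 0.498% in cells that did not carry the segment. A gene expression matrix on its own would therefore have given 19 segments, with 245 carriers, a count of 0 in their own carriers.

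**Figure D2:**
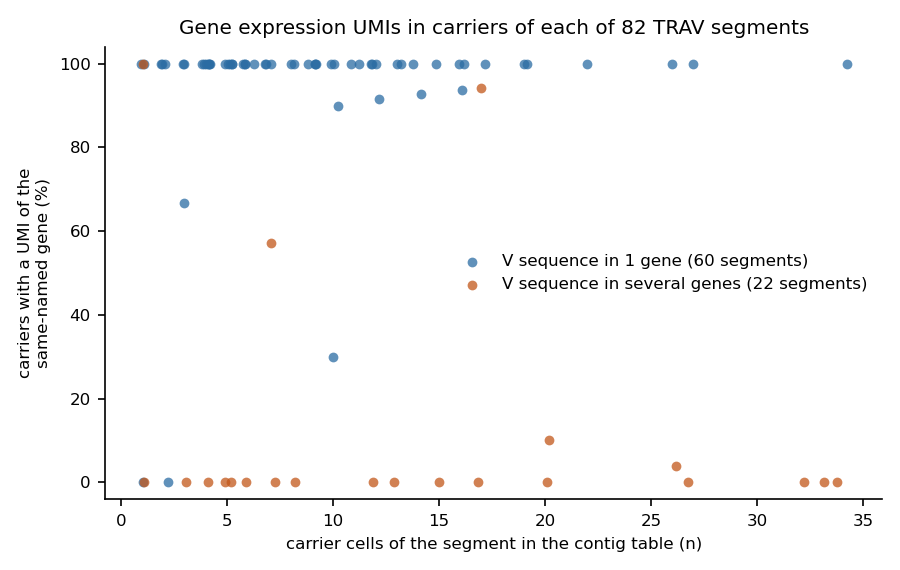
For each of the 82 TRAV segments, the number of carrier cells (x axis, with a small sideways shift to separate points) and the percent of them with a gene expression UMI of the gene of the same name (y axis), coloured by whether the V sequence is in 1 annotated gene or in several. Most segments with a V sequence in 1 gene sit at 100%, while most of the others sit at 0%.

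To compare the lineages, cells with a Cd4 UMI and none of Cd8a or Cd8b1 (Cd4-only, 225 cells) were set against cells with a UMI of Cd8a or Cd8b1 and none of Cd4 (Cd8-only, 433 cells). Another 33 cells held both coreceptors and 108 held neither. The groups differed in depth, with a median of 4054 UMIs in Cd4-only and 7742 in Cd8-only cells, and 36 and 39 of their cells, respectively, were those low in ribosomal protein RNA. In the 82 cells with B-cell markers, which were chosen without a Cd3 UMI, Cd4 was found in 1 and a CD8 gene in 2. The Cd4-only cells used 71 segments and the Cd8-only cells 80.

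Of 29 segments with 10 or more cells in both groups together, 8 (27.6%) differed at least 2-fold in share. This is close to the 28.4% found over all 95 TRAV, TRAJ, TRBV and TRBJ segments tested in the same way, so the number of differing TRAV segments did not stand out. Intervals that did not overlap were found for 6 of the 95 segments (6.32%), and for 0 of the 29 TRAV segments. Intervals of TRAV4N-4 and TRAV13-1 did come apart when the cells were counted in other ways, as given below. The share over all 95 segments was not counted in those ways, so whether these 2 segments stand out there was not tested.

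Higher in Cd4-only cells were TRAV4N-4 and TRAV14-2. TRAV4N-4 (chr14:53302059-53302559, GRCm38) was carried by 10 of 225 Cd4-only cells (4.44%, 2.15% to 8.02%) and by 4 of 433 Cd8-only cells (0.924%, 0.252% to 2.35%), a ratio of 4.81. With each clonotype counted once in a group, it was found in 10 of 221 and 3 of 401 clonotypes, and the intervals no longer overlapped (2.19% to 8.16% and 0.155% to 2.17%). They were also apart with 2 or more coreceptor UMIs (8 of 130 and 4 of 427 cells) and without clonotypes of 4 or more cells (10 of 225 and 2 of 407 cells). Leaving out these clonotypes, a step chosen after seeing the data, removed Cd8-only cells but no Cd4-only cells. This step changed only the Cd8-only share, so it is no separate support for the difference. TRAV14-2 was found in 7 and 6 cells, with a ratio of 2.25. Its copy TRAV14N-2, with the same CDR1 and CDR2, was found in 3 and 9 cells, and together they made up 10 and 15 cells, a ratio of 1.28.

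Higher in Cd8-only cells were 6 segments. TRAV13-1 (chr14:53545014-53545525) was carried by 4 Cd4-only cells (1.78%) and 23 Cd8-only cells (5.31%), a 2.99-fold difference. With 2 or more coreceptor UMIs it was found in 0 of 130 and 23 of 427 cells, and the intervals were apart. TRAV12D-3 was carried by 5 and 25 cells (2.22% and 5.77%), and TRAV16N by 6 and 26 (2.67% and 6.005%). To level depth, cells of 2500 or more UMIs (189 of 225 Cd4-only and 424 of 433 Cd8-only cells) were thinned to 2500, and shallower cells were dropped. With the groups set again, 145 Cd4-only and 417 Cd8-only cells were left. TRAV13-1 was then found in 1 and 22 cells, whereas the ratios of TRAV12D-3 and TRAV16N went below 2, to 1.74 and 1.81. Thinning and the loss of shallow cells were not tested apart. TRAV16, with 2 and 10 cells, differed 2.60-fold. The lean of the remaining segments, TRAV13N-1 (1 and 10 cells, 5.20-fold) and TRAV8D-2 (2 and 14 cells, 3.64-fold), rested on the same cells, those of 1 clonotype of 8 cells. All 8 were Cd8-only, and 7 of them carried a chain of each segment, so these are not separate results. Without clonotypes of 4 or more cells they were found in 1 and 3 cells and in 2 and 6 cells, each 1.66-fold apart.

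**Figure D3:**
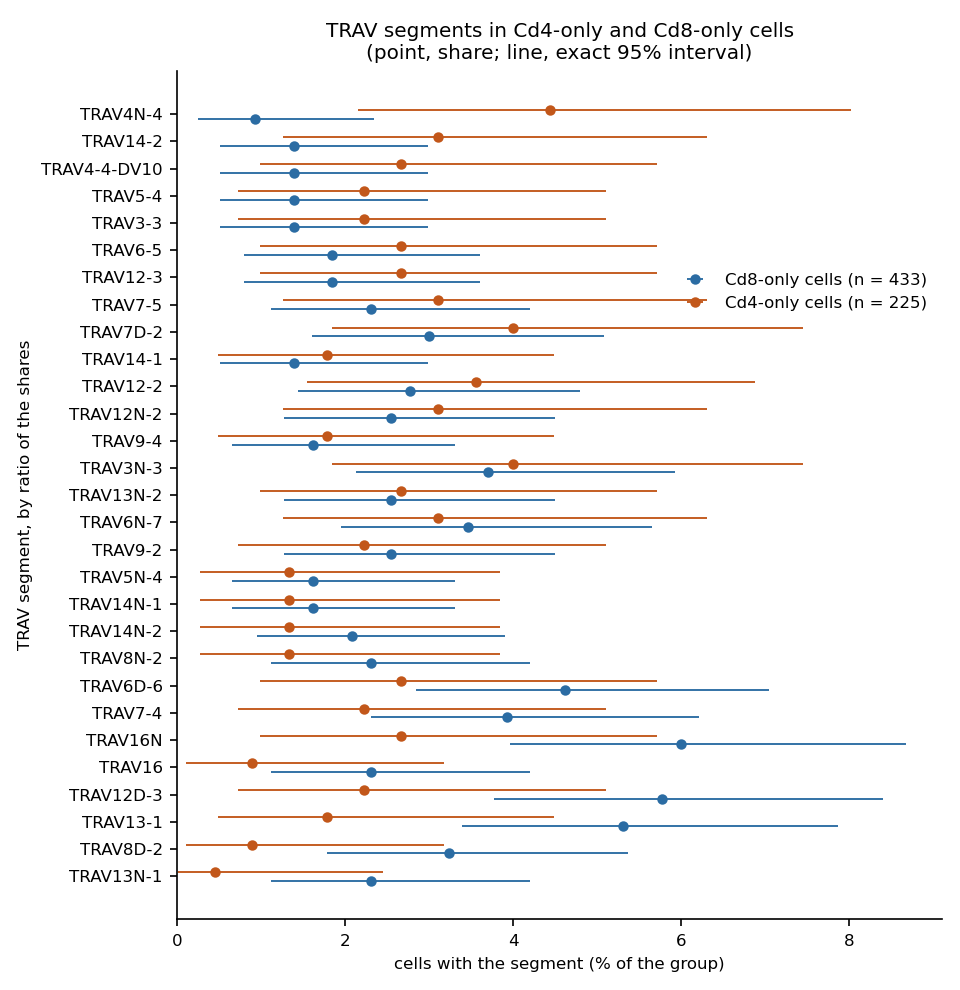
Share of Cd4-only cells (n = 225) and of Cd8-only cells (n = 433) that carried each of the 29 TRAV segments tested (percent, points with exact 95% intervals), ordered by the ratio of the shares. TRAV4N-4 is at the Cd4 end and TRAV13N-1 at the Cd8 end, and in every row the intervals overlap.

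By subfamily, 3 of 18 tested (16.7%) differed at least 2-fold, and all were higher in Cd8-only cells. These were TRAV12D and TRAV16N, each seen through 1 segment, and TRAV8D (1.78% and 3.93%). The single direction depends on the minimum number of cells set for subfamilies. TRAV4N, with 19 cells in both groups together, fell just below it and was not tested. TRAV4N was found in 11 Cd4-only and 8 Cd8-only cells (4.89% and 1.85%), a ratio of 2.65. The V sequences of TRAV4N-4 and TRAV4N-3 are also in TRAV4D-4 and TRAV4D-3, so here too the copy is open. Subfamilies below the minimum leaned both ways, since TRAV9N had 2 Cd4-only and 9 Cd8-only cells. TRAV7 was found in 5.78% of Cd4-only and 8.55% of Cd8-only cells, and TRAV14 in 7.11% and 3.70%. With the copies merged, 1 of 12 families (8.33%) remained, TRAV16, with 9 Cd4-only and 41 Cd8-only cells (4.0% and 9.47%). The 8.33% was also below the 28.4% over all 95 segments. TRAV4 was at 8.44% and 4.62%, and TRAV6, TRAV7 and TRAV3 differed by less than 1.1-fold.

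Segments that share CDR1 and CDR2 were then counted together, a grouping chosen after the data had been seen. The 82 segments fell into 64 such sets, and 15 of them held several segments. Of 28 sets tested, 6 (21.4%) differed at least 2-fold. This was not above the 28.4% found over all 95 single segments, so the number of differing sets did not stand out. Sets pool segments, however, so these shares are not strictly alike. TRAV4N-4 and TRAV4-4-DV10, whose loops are identical as printed above, were carried by 16 Cd4-only cells (7.11%) and 10 Cd8-only cells (2.31%). Both copies leaned the same way, since TRAV4-4-DV10 had 6 cells in each group (2.67% and 1.39%). TRAV14N-3 and TRAV14-3 together were carried by 11 and 7 cells (4.89% and 1.62%). TRAV16N with TRAV16 was found in 8 and 36 cells (3.56% and 8.31%), and TRAV13-1 with its D and N copies in 7 and 34 (3.11% and 7.85%). Without clonotypes of 4 or more cells, the set of TRAV13-1 had a ratio of 1.82 and TRAV16N with TRAV16 one of 2.49. TRAV4N-4 with TRAV4-4-DV10 was then found in 16 and 8 cells, with intervals apart (4.12% to 11.3% and 0.852% to 3.84%). As this step removed Cd8-only cells but no Cd4-only cells, it is no separate support for the difference. With all cells counted, the intervals of every set tested overlapped.

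Of the clonotypes with 4 or more cells, 5 had a TRAV chain, and 2 of these 5 had 2 chains. Their 7 chains, each of another segment, are given here, because they carry much of the weight of some segments. The bases in capitals matched neither the annotated V nor the annotated J segment.
TRAV7-4 and TRAJ34: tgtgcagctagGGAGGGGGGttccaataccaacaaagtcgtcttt
TRAV13N-1 and TRAJ9: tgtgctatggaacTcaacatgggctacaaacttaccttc
TRAV8D-2 and TRAJ23: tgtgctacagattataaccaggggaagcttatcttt
TRAV9-2 and TRAJ22: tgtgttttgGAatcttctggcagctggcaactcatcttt
TRAV13-1 and TRAJ31: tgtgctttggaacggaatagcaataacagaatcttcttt
TRAV4N-4 and TRAJ9: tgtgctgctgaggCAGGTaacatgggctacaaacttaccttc
TRAV7D-4 and TRAJ23: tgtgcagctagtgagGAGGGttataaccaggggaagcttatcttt

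Within these clonotypes, all cells in which the chains were read were Cd8-only. Outside its clonotype, the chain of TRAV7-4 was also read in 1 Cd8-only and 1 Cd4-only cell of other clonotypes. The chains of TRAV13N-1 and TRAV8D-2 belonged to 1 clonotype, as did those of TRAV13-1 and TRAV7D-4, which 3 of 4 cells carried together. The chain of TRAV13N-1 was read in 7 of the 12 cells with that segment (58.3%), and that of TRAV8D-2 in 8 of 19 cells (42.1%). The chain of TRAV7-4 was read in 8 of 26 cells, that of TRAV9-2 in 4 of 16, that of TRAV13-1 in 4 of 27, that of TRAV7D-4 in 3 of 8 and that of TRAV4N-4 in 2 of 17. The chains of TRAV8D-2 and TRAV13-1 held no base outside the annotated segments, while that of TRAV7-4 held 9.

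The position of a TRAV segment went together with the TRAJ segment it was joined to. The TRAV segments lie over 1549.71 kb of chromosome 14 (chr14:52427967-53977678, GRCm38), upstream of the TRAJ cluster (chr14:54155005-54218842). In this cluster the TRAJ with the highest numbers lie nearest to TRAV. Of contigs with 1 of the 44 annotated segments nearest to TRAJ, 63.6% (58.4% to 68.6%, 360 contigs) used a TRAJ of the nearer 30. For the 43 segments in the middle of the locus this share was 25% (20.6% to 29.8%, 360 contigs), and for the 43 farthest it was 30.8% (23.6% to 38.6%, 156 contigs). The interval of the nearest segments did not overlap with the others, whose intervals overlapped. The median TRAJ number was 37, 22 and 23, respectively. These shares take each copy name as called and were not counted again for V sequences in 1 gene. Among the 43 farthest, the V sequences of TRAV12D-3 (34 cells), TRAV6D-6 (27) and TRAV7D-2 (26) are also in TRAV12N-3, TRAV6-6 and TRAV7-2, respectively. The position of these 3 segments in their cells is therefore open. So is that of several middle segments, among them TRAV3N-3 (33 cells), TRAV6N-7 (32), TRAV12N-2 (20) and TRAV13N-2 (20). Their V sequences are also in TRAV3D-3, TRAV6D-7, TRAV12D-2 and TRAV13D-2, respectively. How many contigs belong to another part of the locus was not tested, so the middle and farthest shares cannot be compared with each other.

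The segments nearest to TRAJ had the highest TRAJ numbers, though the order did not hold for every segment. All 7 contigs of TRAV21-DV12, the segment nearest to TRAJ among those found, and all 10 of TRAV19 used a TRAJ of the nearer 30, with median TRAJ numbers of 57 and 56. TRAV17 (5 contigs, median 50), TRAV16 (13 contigs, median 50) and TRAV14-3 (12 contigs, median 47) followed. TRAV13-4-DV7, which lies between TRAV14-3 and TRAV16, had a median of 37 in 7 contigs, and TRAV15-2-DV6-2, farther away, one of 28 in 4 contigs. At the far end, TRAV1 was joined to TRAJ21 to TRAJ37 in 4 contigs (median 27.5), and TRAV2 had a median of 17.5 in 2 contigs. Over all 876 contigs, Spearman's rho between the rank of the TRAV and that of the TRAJ segment, both in the order of the chromosome from the far TRAV end on, was -0.45. It was -0.45 over 242 contigs of Cd4-only and -0.43 over 481 contigs of Cd8-only cells. It is given as a description, because contigs share cells, clonotypes and a mouse. For 562 contigs whose V sequence is in 1 gene, and whose position is thus not open to a mix-up of copies, it was -0.55.

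**Figure D4:**
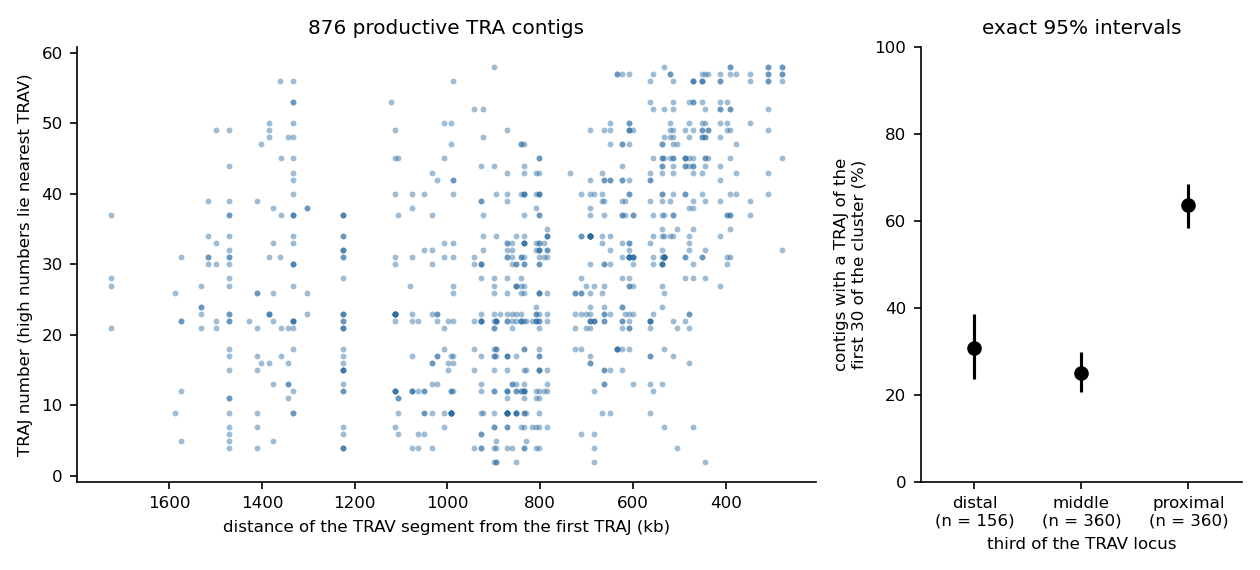
Left, each of 876 contigs by the distance of its TRAV segment from the nearest TRAJ segment (kb, decreasing to the right) and its TRAJ number. Right, the percent of contigs with a TRAJ of the nearer 30 for the 43 farthest (distal), 43 middle and 44 nearest (proximal) annotated TRAV segments, with exact 95% intervals. Segments near the TRAJ cluster sit high in both panels, with TRAV positions taken from the copy names as called.

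The CDR3 had a median of 42 bases (quartiles 39 and 42, range 24 to 54), and all 876 were whole codons. TRAV16 had a median of 48 bases and its copy TRAV16N 45, as did TRAV7-4, while TRAV12D-3, TRAV13-1 and TRAV7D-2 were at 39. TRAV contigs rested on a median of 3 UMIs (1 to 32), and 114 of the 876 on 1 UMI. A median of 3 bases of the CDR3 (quartiles 1 and 5, highest 13) lay outside the annotated V and J segments, and 111 contigs held none.

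The same CDR3 was sometimes made with different TRAV segments. Of 809 CDR3 sequences, 16 were found in several clonotypes, and 7 of these were joined to several TRAV segments. The bases outside the annotated segments had a median of 1.5 in the 16 shared sequences and of 3 in the others. These 4 are shown because each was seen with several segments, with capitals as above and for 1 of the segments.
TRAV14D-3-DV8, TRAV14N-2 and TRAV14N-3 with TRAJ22: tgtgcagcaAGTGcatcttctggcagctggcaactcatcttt
TRAV14-2 and TRAV14N-1 with TRAJ22: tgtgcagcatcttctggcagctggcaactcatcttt
TRAV8D-1 and TRAV8N-2 with TRAJ22: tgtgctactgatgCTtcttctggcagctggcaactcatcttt
TRAV13N-1 and TRAV6-7-DV9 with TRAJ50: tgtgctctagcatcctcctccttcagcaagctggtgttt

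The CDR3 of TRAV14 with TRAJ22 was found in 5 cells of 5 clonotypes, 1 of them Cd4-only and 4 Cd8-only. It held 0 to 4 bases outside the annotated segments, depending on the TRAV14 copy. Of the 7 CDR3 sequences with several segments, 5 used TRAJ22.

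TRAV11 was carried by 5 cells (0.626%, 0.203% to 1.45%), and in 3 of them it was joined to TRAJ18, a share of 0.375% (0.0775% to 1.09%). The CDR3 sequences are printed because the 3 cells with TRAJ18 did not share 1 nucleotide sequence. Which of these sequences encode the invariant chain was not decided here. Capitals mark bases outside the annotated segments.
TRAV11 and TRAJ18, cell 1, contig with 2 UMIs: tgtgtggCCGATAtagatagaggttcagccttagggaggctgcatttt
TRAV11 and TRAJ18, cell 1, contig with 1 UMI: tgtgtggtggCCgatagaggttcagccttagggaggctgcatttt
TRAV11 and TRAJ18, cell 2, contig with 1 UMI: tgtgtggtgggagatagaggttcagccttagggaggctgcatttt
TRAV11 and TRAJ18, cell 3, contig with 1 UMI: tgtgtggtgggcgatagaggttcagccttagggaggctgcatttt
TRAV11 and TRAJ57, cells 4 and 5: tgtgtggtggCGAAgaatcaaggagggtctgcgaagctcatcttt

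The CDR3 of cells 2 and 3 held 45 bases, all within the annotated segments, but each rested on 1 contig UMI. These CDR3 sequences differ only at the codon gga or ggc. Each of these codons encodes glycine, so cells 2 and 3 share the encoded CDR3. With 2 or more contig UMIs required, 1 cell with TRAV11 and TRAJ18 was left, cell 1 with its chain of 48 bases. Cell 1 had 2 productive contigs of TRAV11 with TRAJ18, of 45 and 48 bases. Cells 4 and 5 shared a CDR3 with TRAJ57 but were in different clonotypes, with TRBV13-1 and TRBV12-2. Of the β-chains paired with TRAV11 and TRAJ18, TRBV13-1 was found in cells 2 and 3, and a contig called as TRBV12-2+TRBV13-2 in cell 1. Cell 1 also held TRBV17 and cell 3 also TRBV1, so that 2 of the 3 cells had a second β-chain. TRBV13 is among the β-chain segments known from mouse NKT cells. It was not particular to these cells, since TRBV13-1 was also in cell 4. Of 945 cells with a productive TRB contig, 61 (6.46%) held TRBV13-1 and 80 (8.47%) a contig called as TRBV12-2+TRBV13-2. In all, 19 cells used TRAJ18, and 16 of them with another TRAV segment.

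Zbtb16 and Klrb1c together set the cells with TRAV11 and TRAJ18 apart from the rest. Zbtb16, which encodes PLZF, the transcription factor of innate-like T cells, was found in all 3 cells with TRAV11 and TRAJ18 (3, 1 and 1 UMIs). Of the 790 cells with neither TRAV11 nor TRAV1, 1 held a Zbtb16 UMI, and that cell carried TRAV7-4 with TRAJ34. The rates were 2.36 UMIs per 10000 (0.766 to 5.51) in the 3 cells and 0.00202 (5.12e-05 to 0.0113) in the 790, and the intervals did not overlap. The 16 cells that joined TRAJ18 to another TRAV segment held no Zbtb16 UMI. Neither did the 2 TRAV11 cells with TRAJ57, although with 4877 UMIs together these allow up to 6.15 per 10000. In the 82 cells with B-cell markers, 1 held a Zbtb16 UMI.

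Klrb1c, which encodes the NK-cell receptor NK1.1, was found in the same 3 cells with 2, 2 and 4 UMIs, 3.78 per 10000 (1.63 to 7.44) against 0.0586 (0.0393 to 0.0842) in the 790 cells. In the 82 cells with B-cell markers, 1 held Klrb1c, with 10 UMIs. Over all 799 cells, 18 held Klrb1c and 4 held Zbtb16, and the 3 that held both were those with TRAV11 and TRAJ18. Of the other NKT markers fixed in the list, Il2rb, a chain of the IL-15 receptor, was at 6.61 per 10000 (3.61 to 11.1) against 2.27 (2.14 to 2.41), but it was at 6.25 (3.92 to 9.46) in the 4 TRAV1 cells described below. Cxcr6, a chemokine receptor of tissue-resident cells, was at 3.78 (1.63 to 7.44) against 0.465 (0.407 to 0.529). Its UMIs were uneven, with 2, 0 and 6 in cells 1, 2 and 3, and 139 of the 790 cells also held it. The remaining NKT markers did not set the 3 cells apart. Tbx21 had 3 UMIs in 2 of the 3 cells, 1.42 per 10000 (0.292 to 4.14) against 0.410 (0.356 to 0.471). Slamf6 had 2 UMIs in 1 cell and was lower than in the 790 cells, 0.944 (0.114 to 3.41) against 2.26 (2.13 to 2.39). Icos had 0 (0 to 1.74) against 0.712 (0.639 to 0.790). Cells 1 and 2 held no coreceptor UMI, and cell 3 held 1 of Cd4.

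TRAV1 was carried by 4 cells (0.501%, 0.137% to 1.28%), all Cd8-only, and was joined to TRAJ21, TRAJ27, TRAJ28 and TRAJ37.
TRAV1 and TRAJ21: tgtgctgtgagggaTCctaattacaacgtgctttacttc
TRAV1 and TRAJ27: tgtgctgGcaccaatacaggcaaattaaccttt
TRAV1 and TRAJ28: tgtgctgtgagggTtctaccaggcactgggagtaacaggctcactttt
TRAV1 and TRAJ37: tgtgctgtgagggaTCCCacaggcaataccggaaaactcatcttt

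The MAIT chain, TRAV1 with TRAJ33, was found in none of the 799 cells, for which the limit by 3 counts is 0.375% and the upper bound of the exact interval 0.461%. TRAJ33 itself was used by 22 cells through 16 other TRAV segments. The 4 TRAV1 cells held no UMI of Zbtb16 among 35212 UMIs, which allows up to 0.852 per 10000. Blk, Il23r and Maf of the MAIT list were likewise at 0 in these cells, while Il18r1 was found in 3 of 4 and Cxcr6 in 2 of 4. In the 790 cells with neither TRAV11 nor TRAV1, Blk and Il23r were found in 1 cell each and Maf in 53. A count of 0 in 4 cells therefore cannot set them apart. Il18r1 was at 1.42 UMIs per 10000 against 1.17 in the 790 cells, and Cxcr6 at 0.568 against 0.465.

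**Figure D5:**
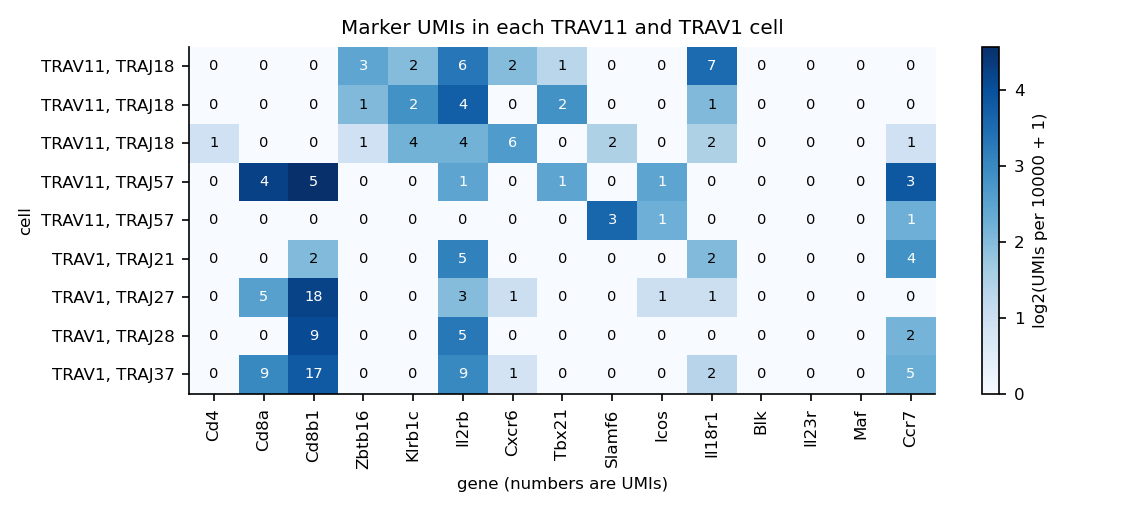
UMIs of coreceptor, NKT, MAIT and naive T-cell marker genes (x axis) in each of the 9 cells with TRAV11 or TRAV1 (y axis, with the TRAJ of the chain); the numbers are UMIs and the shade is log2(UMIs per 10000 + 1). Zbtb16 and Klrb1c are above 0 only in the 3 cells with TRAV11 and TRAJ18.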

How the data were processed

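Gene expression and TCR libraries of 1 vehicle-treated mouse were analysed. Reads were processed by the authors with CellRanger. The deposited matrix holds raw UMI counts for all barcodes, with no cells selected (12855001 UMIs, 32285 genes, 300213 barcodes), and its header names Cell Ranger 4. The deposited contig table holds UMI and read counts per assembled contig. The submitters' processing notes name Cell Ranger and GRCm38, and the version and reference behind the contig table are not given in the sources used here.

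Cells, productivity, confidence, segments and clonotypes are those of the contig table. A cell was counted once for each TRAV segment it carried. Groups of cells were set by coreceptor UMIs of the same barcode. Differences were called at 2-fold, for segments with 10 or more and subfamilies with 20 or more cells in both groups together, and a group at 0 was taken at 3 cells. Cells are not replicates, so shares have exact 95% intervals and no p-values. Cells with B-cell markers were those with 1331 or more UMIs, 2 or more B-cell genes, no Cd3 UMI and no clonotype. Positions are from the RefSeq table of GRCm38.p6, matched by symbol for all 82 TRAV and 43 TRAJ segments found. V sequences and CDR3 ends were compared with GENCODE vM39 transcripts by exact match. The usage functions were tested on simulated cells. Python 3.11.15, SciPy 1.17.1, NumPy 2.4.6, pandas 2.3.3 and Matplotlib 3.10.9 were used.

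Named segments are the 10 with most cells, those at both ends of the Cd4-only to Cd8-only ratio (5 each), TRAV11 and TRAV1, and those in clonotypes of 4 or more cells, and named subfamilies are those with 20 or more cells. Others were chosen after their values were seen. The segments, marker lists and tests were chosen with earlier results of these data known. Alternatives changed the contig UMI minimum, the confidence filter, the number of α-chains per cell, the UMI limit, the coreceptor rule, depth, clonotype counting, ribosomal content, cell minimum, fold and copies. With 1 library, no replicate could be left out. Some genes of the marker lists are not reported here.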

Additional observations from a re-analysis of the deposited data

Results flagged for a closer look

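A TRAV signal appeared in cells that the rule left out. Of the 176 clonotyped cells with a TRB but no productive TRA contig, 75 (42.6%, 35.2% to 50.3%) held a gene expression UMI of a Trav gene. They held 125 such UMIs in all and had a median of 4083.5 UMIs. Of the 82 cells with B-cell markers 0 held one, but these were chosen without a Cd3 UMI. The 799 cells therefore do not hold every cell with a Trav transcript. A Trav UMI need not come from a productive chain that was missed. Of 2599 Trav UMIs in the 799 cells, 2030 were of the gene named as a segment carried by the cell, and the rest were not. Whether the 75 cells held a productive α-chain was not tested.

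Non-productive TRAV contigs, which the rule leaves out, numbered 206 in 198 cells, with a median of 2 UMIs and 65 segments. Of 19 families, 3 had a share whose interval did not overlap with that among productive contigs. The same comparison was not made for TRAJ, TRBV or TRBJ segments, so whether 3 of 19 stands out was not tested. TRAV13 made up 19.4% (14.2% to 25.5%) of non-productive and 9.70% (7.82% to 11.9%) of productive contigs, TRAV14 2.91% (1.08% to 6.23%) and 10.0% (8.13% to 12.2%), and TRAV11 3.88% (1.69% to 7.51%) and 0.685% (0.252% to 1.48%). Of the 8 non-productive TRAV11 contigs, 1 was joined to TRAJ18.

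Productive TRAV contigs on barcodes that were not called cells numbered 887, with a median of 1 UMI, and 20 of them were of high confidence. A segment found in the 799 cells was carried by 876 of them.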

How the results depend on the processing

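The numbers of cells, segments and subfamilies stayed within 1.5 times under all alternatives tried for them except merging of copies, which left 19 subfamilies and put TRAV7 at 15.0%. Calls between Cd4-only and Cd8-only cells rested on few cells. From 2 and 6 segments higher in Cd4-only and Cd8-only cells, a cell minimum of 5 gave 8 and 12 (of 53 tested), one of 20 gave 0 and 3 (of 9), and a 1.5-fold limit gave 5 and 10. With 2 or more contig UMIs 1 segment was higher in Cd4-only cells, and after thinning 3 were higher in Cd8-only cells. Subfamilies went from 0 and 3 to 2 and 1 with 2 or more coreceptor UMIs, to 1 and 1 with only the top TRA contig, to 1 and 6 at 1.5-fold and to 1 with copies merged. In Cd4-only cells, thinning gave 2 and leaving out cells low in ribosomal protein RNA gave 1. Segments with intervals apart rose from 0 to 2 with 2 or more coreceptor UMIs (TRAV4N-4 and TRAV13-1), and to 1, TRAV4N-4, both with each clonotype counted once and without clonotypes of 4 or more cells. The last of these left out Cd8-only cells but no Cd4-only cells. No share over all TCR segments was counted under these alternatives. No called segment changed direction, and TRAV4N-4 (3.96 to 9.04-fold) and TRAV16 (2.02 to 3.48-fold) stayed past 2-fold in all 7 alternatives that changed cells or groups. TRAV13-1 stayed past 2-fold (2.53 to 7.65-fold) wherever a ratio could be formed. With 2 or more coreceptor UMIs it had 0 Cd4-only cells, so no ratio was given. With 2 or more contig UMIs, TRAV11 was left in 2 cells, 1 of them with TRAJ18. The share of carriers with a Trav UMI was 52.3% after thinning and 70.9% with families summed, against 0.257% and 2.19% in other cells. Spearman's correlation of TRAV and TRAJ order stayed within 1.5 times in 4 alternatives. The alternatives without large clonotypes, with shared loops, with V sequences in 1 gene, and for this correlation with 2 or more contig UMIs, were chosen after seeing the data.

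With 1 mouse, no difference between cells can be set against the spread between animals. For a segment seen in 0 cells the limit of 3 counts is 0.375% of the cells, and 1.33% of the 225 Cd4-only cells. Coreceptor calls rest on few UMIs, in cells of unequal depth.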

Other observations

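The memory or effector genes of the marker list (Cd44, Cxcr3, Ccl5, S100a4, Il2rb, Ly6c2, Gzmb, Gzmk and Nkg7) were summed by TRAV family in Cd8-only cells. They held 80.0 UMIs per 10000 over all 433 cells. The families TRAV8 (114, 32 cells) and TRAV13 (109.99, 57 cells) were at the high end, and TRAV16 (55.6, 41 cells) and TRAV12 (56.8, 59 cells) at the low end. The values of TRAV8 and TRAV13 share cells, since 7 cells of 1 clonotype carried both TRAV8D-2 and TRAV13N-1. Without clonotypes of 4 or more cells, TRAV8 was at 62.0 and TRAV13 at 75.4, against 69.9 over the remaining 407 cells. These sums pool cells of very different levels, and no interval is given because cells of 1 clonotype are not independent.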
